A study of Mus musculus with 28 samples.

Results

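The comparison asks what remains of the response to Nodal in XEN-eYFP cells when the kinase of its receptor is inhibited. It sets 3 arrays of cells given 50 ng/ml Nodal together with SB431542 against 5 arrays of cells given SB431542 alone, chosen by their treatment labels, which is 8 of the 28 arrays measured. All cells came from 1 mouse line of extraembryonic endoderm stem (XEN) cells that carries eYFP, and every treatment ran for 96 h before RNA was taken. The other groups were 5 arrays each of Cripto with SB431542, Nodal, Cripto and Media, where Media stands for cells given neither protein nor inhibitor, Nodal was again given at 50 ng/ml and Cripto at 100 ng/ml. No label states how much SB431542 was used, or whether the arrays of a group came from separate cultures. The p-values therefore measure only the spread between the arrays, which may be technical. Replicate numbers below are names given in accession order.

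Nodal is a secreted ligand of the TGF-beta superfamily that binds type II activin receptors and the type I receptor Alk4, usually with a co-receptor of the EGF-CFC family such as Cripto. The activated type I receptor phosphorylates Smad2 and Smad3, which enter the nucleus with Smad4 and switch genes on or off, among them feedback inhibitors of the pathway itself. SB431542 blocks the kinase of Alk4 and of close relatives such as the TGF-beta type I receptor, and spares the BMP receptors. XEN cells derive from the primitive endoderm of the blastocyst, and in the embryo Nodal acts on the visceral endoderm that this lineage forms.

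Values are log2 intensities of 9951 genes after background correction and quantile normalisation, and changes come from a limma fit over all 28 arrays with the BeadChip (the slide that holds the arrays) as a block. A gene is said to have risen or fallen where its p-value, adjusted by the Benjamini-Hochberg method over all 9951 genes, was below 0.05. The Nodal with SB431542 arrays lay on chips 1, 3 and 4, which also held SB431542 replicates 1 to 3, so each has a partner on its own slide. Their mean raw signal was 440 to 629 units with 14956 to 16183 probes detected, against 196 to 658 units and 13607 to 15739 probes on the SB431542 arrays. All 10 markers of extraembryonic endoderm (Gata4, Gata6, Sox17, Sox7, Foxa2, Dab2, Pdgfra, Lama1, Col4a1 and Sparc) were detected on every array of both groups. Their summed linear level was 192203 to 197815 with Nodal and SB431542 and 179914 to 197308 with SB431542 alone. Of 8 markers of pluripotent epiblast, each group had 2 detected on every array and 5 on none. Nanog, Sox2, Fgf4 and Tdgf1 were undetected in both groups. The fifth was Esrrb in Nodal with SB431542 and Zfp42 in SB431542 alone. None of 7 trophoblast markers, 1 of 9 feeder fibroblast markers and none of 6 definitive endoderm and mesendoderm markers were detected on every array of either group. In bulk RNA, fewer cells of a type and less RNA per cell cannot be told apart.

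A pair of control arrays, SB431542 replicate 5 and Media replicate 5, stood apart from their groups and lay with the Nodal with SB431542 arrays. With both left out of the fit (26 arrays, an alternative chosen after seeing the data), 675 genes were higher (6.78% of those tested) and 143 lower (1.44%) in Nodal with SB431542. The mean level of the 675 genes was 9.37, 9.34 and 9.36 on the Nodal with SB431542 arrays, against 8.44, 8.44, 8.45 and 8.41 on SB431542 replicates 1 to 4 and 9.34 on SB431542 replicate 5. On the Media arrays it was 8.46, 8.47, 8.45 and 8.44 for replicates 1 to 4 and 9.29 for replicate 5. Both replicates 5 therefore lay with the Nodal with SB431542 arrays and away from their own groups, while the Nodal arrays (8.28 to 8.34) and the Cripto with SB431542 arrays (8.16 to 8.24) lay below all of these. The 143 genes went the other way, with the 2 arrays moved only part of the way. Their mean levels were 8.19, 8.27 and 8.29 in Nodal with SB431542, against 8.75, 8.85, 8.85, 8.89 and 8.38 in SB431542 replicates 1 to 5. In Media they were 8.72, 8.74, 8.77 and 8.80 for replicates 1 to 4 and 8.42 for replicate 5.

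After allowance for the chip, the departure of Media replicate 5 from its group had the sign of the Nodal with SB431542 difference in 657 (97.3%) of the 675 genes, with a median of 0.87 log2 units beside a median difference of 0.83. For SB431542 replicate 5 these were 663 genes (98.2%) and 0.80, although its departure leans on the only other array of its chip and its group is one side of the difference. Over the 143 genes, each of the 2 arrays departed with that sign in 130 (90.9%), with a median of -0.36 beside a median difference of -0.53. Across all 9951 genes, the difference between Nodal with SB431542 and SB431542 within chips 1, 3 and 4 correlated with Media replicate 5 minus the other Media arrays at r = 0.45, and with SB431542 replicate 5 minus replicate 4 at r = 0.61. Neither of those pairs of measures shares an array. The same measure for Nodal replicate 5 on the chip of Media replicate 5 gave r = 0.00, and for Cripto with SB431542 replicate 5 on the chip of SB431542 replicate 5 it gave r = 0.02. What set these 2 arrays apart, an exchange or shared handling with other samples included, was not tested, the labels name no difference in their handling, and the counts below and the genes called are given with and without them. Nodal replicate 1 also departed from its group, with a mean signed deviation over the Nodal response genes (from each gene's mean over all arrays) of 0.19 log2 units, where the other Nodal arrays had 0.44 to 0.46 and the Media arrays -0.54 to -0.50.

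**Figure D1:**
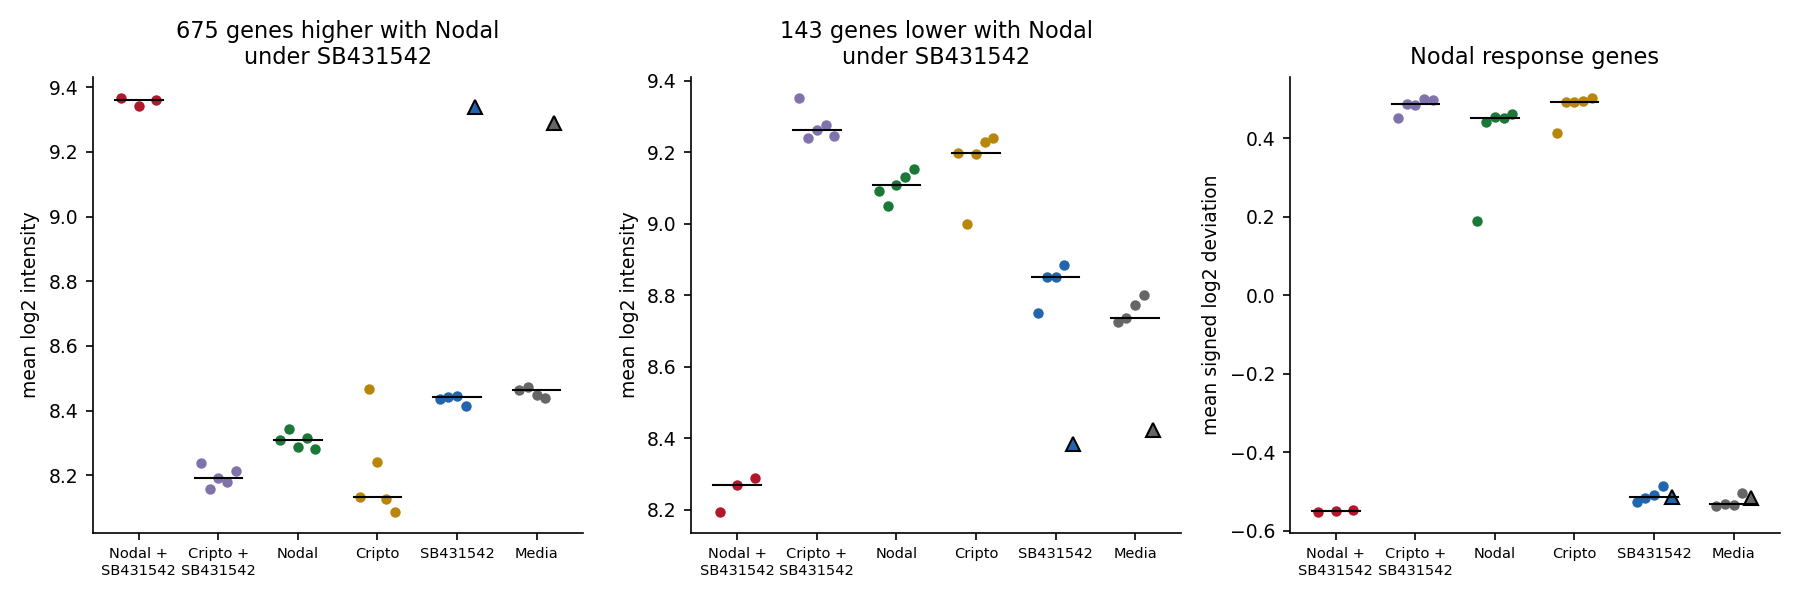
Each point is 1 array and each black line a group median; triangles are SB431542 replicate 5 and Media replicate 5. The vertical axes give the mean log2 intensity of the 675 genes higher and the 143 genes lower in Nodal with SB431542 (26 arrays), and the mean signed log2 deviation of the 5727 genes that changed with Nodal; the triangles sit with the 3 Nodal with SB431542 arrays in the left panel (9.34 and 9.29 beside 9.34 to 9.37) and with their own groups in the right panel.

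The response that Nodal raised without the inhibitor was not seen with it. Nodal alone changed 5727 genes against Media (57.6% of those tested), 2851 higher (28.7%) and 2876 lower (28.9%), 1737 of them by at least 2-fold. Without the 2 arrays that stood apart it changed 5446 genes, 1742 of them by at least 2-fold. Over these 5727 genes the mean change in the direction of Nodal was -0.02 log2 units for Nodal with SB431542 against SB431542 alone and 0.92 for Nodal against Media. The value under the inhibitor was -0.03, -0.03 and -0.04 within chips 1, 3 and 4 and 0.000197 without the 2 arrays that stood apart. With the inhibitor, 48.9% of the 5727 genes lay in the Nodal direction. Genes with a larger response to Nodal did not keep more of it: the median change in the Nodal direction under SB431542 was -0.01 for the 1421 genes that had changed by less than 0.5 log2 units and 0.02 for the 111 that had changed by at least 3 log2 units. The mean signed deviation over the 5727 genes was -0.55 on each of the 3 Nodal with SB431542 arrays, against -0.53 to -0.48 on the SB431542 arrays.

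The difference between the Nodal effects with and without the inhibitor was itself tested as an interaction, and 4365 genes (43.9%) passed, or 4120 without the 2 arrays. Among the 1737 genes of at least 2-fold, the interaction opposed the Nodal change and passed in 1661. For 1402 (80.7%) of them, the 95% confidence interval of the change under SB431542 excluded a remainder as large as 50% of the Nodal change. Without the 2 arrays this held for 1320 of 1742 genes (75.8%). Over all genes, 8823 (88.7%) had a 95% interval within 2-fold in either direction, and for the rest the interval reached further.

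**Figure D2:**
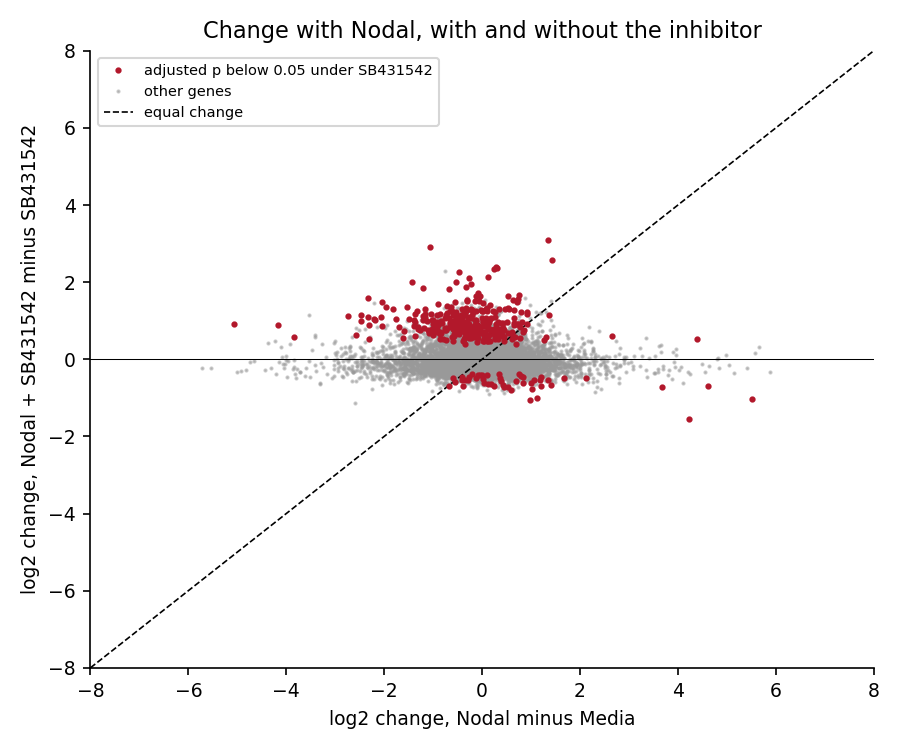
Each point is 1 of 9951 genes, with its log2 change for Nodal minus Media on the horizontal axis and for Nodal with SB431542 minus SB431542 on the vertical axis; the dashed line marks equal change and red points are the 366 genes with an adjusted p below 0.05 under SB431542. Genes spread along the horizontal line at 0 and not along the dashed line, and the red points highest on the vertical axis lie in the middle of the horizontal range.

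Of the 10 genes that Nodal raised most, 9 did not pass the test under SB431542. Gpc3, a cell-surface glypican, was at 5.60, 5.32 and 5.82 in Nodal with SB431542, against 5.58, 6.05, 5.91, 6.86 and 5.45 in SB431542 alone. The groups overlapped, whereas Gpc3 was at 11.26 to 11.60 on the Nodal arrays and 5.14 to 5.87 on the Media arrays. Its change was -0.34 ± 0.22 (SE) log2 units under the inhibitor (adjusted p = 0.38, 95% interval -0.80 to 0.11) beside 5.89 without it. Cldn6, a tight junction claudin, was at 6.40, 6.54 and 6.49 in Nodal with SB431542, against 6.95, 6.72, 6.51, 7.01 and 6.98 in SB431542 alone, and at 11.24 to 12.65 in Nodal. Its change under the inhibitor was -0.22 (adjusted p = 0.58) where Nodal alone gave 5.42. Cyp26a1, which degrades retinoic acid, was detected on no array of either inhibitor group and changed by -0.35 under SB431542 (adjusted p = 0.45), against 5.14 without it. Ddc, the dopa decarboxylase, changed by -0.16 (adjusted p = 0.59), against 5.05 without it.

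Dpp4, a surface peptidase, Rnf130, a membrane ubiquitin ligase, and Spint1, a membrane inhibitor of serine proteases, were detected on no Media, SB431542 or Nodal with SB431542 array. Nodal alone raised Dpp4 at least 29.0-fold, Rnf130 at least 35.0-fold and Spint1 at least 21.6-fold over Media, each a bound set by the lowest signal that counts as detected. Spsb1, an adaptor of a ubiquitin ligase, and Clic6, a chloride intracellular channel protein, changed by -0.24 and 0.04 under the inhibitor (adjusted p = 0.62 and 0.91). The tenth, Cpn1, fell with Nodal under SB431542 and is described with the genes that fell.

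The 10 genes that Nodal lowered most did not pass the test when the inhibitor was present, with 1 exception. Tmem176b, a membrane protein, was at 10.63, 10.61 and 10.51 in Nodal with SB431542, against 11.02, 10.93, 11.03, 10.29 and 10.34 in SB431542 alone. These ranges overlap, while Nodal alone left it undetected on all 5 arrays, at least 29.7-fold lower than in Media. Satb1, a chromatin organiser, was at 11.24, 11.35 and 11.47 in Nodal with SB431542, against 11.32 to 11.60 in SB431542 alone and 6.26 to 6.98 in Nodal, and changed by -0.06 (adjusted p = 0.86). Sox5, an SRY-box transcription factor, changed by -0.32 (adjusted p = 0.31) and Igfbp5, a binding protein for insulin-like growth factors, by -0.04 (adjusted p = 0.96). Sdk1, Acss1, Napsa, Btn1a1 and Tnik gave changes between -0.30 and 0.42, with adjusted p-values of 0.135 to 0.341. The exception was Pmch, the precursor of melanin-concentrating hormone, at 10.59, 10.85 and 10.71 in Nodal with SB431542, against 9.61, 9.78, 9.52, 9.95 and 11.03 in SB431542 alone. Only SB431542 replicate 5 exceeded the Nodal with SB431542 arrays. Pmch rose by 0.91 ± 0.25 (SE) log2 units (adjusted p = 0.047) and by 1.04 without the 2 arrays (5.86e-05), while Nodal alone gave -5.06 and left it undetected.

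Components of the pathway were read next, beginning with the ligands. Of 8 measured ligands and antagonists of the Nodal, activin and TGF-beta branch none passed (limma, also none at an unadjusted p below 0.05), and all 8 had a 95% interval within 2-fold. Their median change under SB431542 was -0.15, beside -0.08 over all genes. Gdf1, a ligand that pairs with Nodal, changed by -0.28 (adjusted p = 0.28), Fst, the activin antagonist follistatin, by -0.01 (0.97) and Tgfb1 by -0.03 (0.94). Nodal itself, Lefty1, Lefty2 and Cer1 have probes that did not pass the detection filter.

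Among 10 measured receptors and co-receptors 2 rose and none fell, beside 3.2% of all genes higher and 0.482% lower. These shares apply to every list below, with 28.7% of all genes higher and 28.9% lower for Nodal alone. Tgfbr1, the type I receptor for TGF-beta and a target of SB431542, was at 10.77, 10.53 and 10.74 in Nodal with SB431542, against 9.95, 9.86, 9.91, 10.25 and 10.76 in SB431542 alone. SB431542 replicates 1 to 4 lay below all 3 arrays with Nodal, and replicate 5 lay among them. Tgfbr1 rose by 0.73 ± 0.16 (SE) log2 units (adjusted p = 0.0175), and by 0.77 without the 2 arrays (0.00271). Acvr2a, an activin type II receptor, was at 6.33, 6.36 and 6.14 in Nodal with SB431542, against 5.99, 5.32, 5.34, 4.77 and 5.80 in SB431542 alone, with no overlap. Its fitted change was 0.75 ± 0.18 log2 units, and 0.79 without the 2 arrays. Acvr2a was detected on all 3 arrays with Nodal and 1 of 5 with SB431542 alone and on no array of the other groups. It therefore passed the detection filter only through the group where it is high, and its main test is not given. The counts of genes that rose include it. Its change was smaller in other fits, 0.26 without background correction and 0.16 with the authors' deposited values. The tests of those fits are not given either, for the same reason. Acvr1b, which encodes Alk4, was at 5.87, 6.06 and 5.80 in Nodal with SB431542, against 5.80, 6.81, 6.18, 6.79 and 6.34 in SB431542 alone. The groups overlapped and the change was -0.25 (adjusted p = 0.58), where Nodal alone raised Acvr1b by 1.20.

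Of 12 measured Smads and partners 2 rose and none fell, beside 3.2% of all genes higher and 0.482% lower. Smad2 was at 9.02, 9.24 and 9.29 in Nodal with SB431542, against 8.56, 8.50, 8.48, 8.64 and 9.24 in SB431542 alone, so that again only SB431542 replicate 5 overlapped. It rose by 0.64 ± 0.16 log2 units (adjusted p = 0.0313), and Trim33, a chromatin reader that acts with Smad2/3, by 0.53 ± 0.13 (0.0313). Without the 2 arrays the rises were 0.69 and 0.57 (adjusted p = 0.00224 and 0.0044), and Smad2 gave 0.42 in the fit of the authors' deposited values (0.0171). Smad3 changed by -0.27 (adjusted p = 0.28). On Media replicate 5 Smad2 was at 9.16 and Trim33 at 9.28, against 8.29 to 8.88 and 8.46 to 8.79 on the other Media arrays. The further detected probes of Trim33 gave -0.25, -0.03 and 0.13, so its rise rests on its brightest probe.

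None of 8 measured targets of Smad2/3 passed the test (limma, also none at an unadjusted p below 0.05), and their median change was -0.14. Skil, a feedback repressor of Smads, was at 7.38, 7.46 and 7.04 in Nodal with SB431542, against 7.21, 7.52, 7.75, 7.79 and 7.62 in SB431542 alone. These overlapped, with 8.48 to 9.46 on the Nodal arrays, and the change was -0.22 (adjusted p = 0.54) beside 1.15 for Nodal alone. Cdkn1a, the cell cycle inhibitor p21, was at 10.91, 10.79 and 10.85, against 10.93, 11.06, 11.09, 10.97 and 10.61 in SB431542 alone, and at 11.93 to 12.35 in Nodal. Its change was -0.16 (adjusted p = 0.45) beside 1.18. Ccn1, a matricellular protein, changed by -0.40 (adjusted p = 0.35) beside 1.96, and Pmepa1, a feedback inhibitor of TGF-beta signalling, by -0.11 (0.78) beside -0.91.

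Genes of the endoderm subtypes moved widely with Nodal alone, and 3 of them passed the test under the inhibitor. Of 18 measured visceral endoderm genes, Spink1 rose under SB431542 and none fell, with a median change of -0.16, while Nodal alone raised 11 and lowered 5, with a median of 1.36. Among all genes 3.2% rose and 0.482% fell under SB431542, and 28.7% rose and 28.9% fell with Nodal alone. Spink1, a secreted trypsin inhibitor, was at 8.67, 8.20 and 8.58 in Nodal with SB431542, against 8.07, 7.70, 7.80, 7.95 and 8.29 in SB431542 alone. Of the SB431542 arrays replicate 5 alone overlapped those with Nodal, and on chips 1, 3 and 4 the differences were 0.60, 0.50 and 0.78. The rise was 0.54 ± 0.14 log2 units (adjusted p = 0.0417), or 0.60 without the 2 arrays (0.00143), beside 4.40 for Nodal alone. It did not pass without background correction (0.39, adjusted p = 0.0529) or in the fit of the authors' deposited values (0.28, 0.125). Apoe was at 6.43, 6.37 and 5.93 in Nodal with SB431542, against 6.10, 7.42, 6.95, 7.19 and 6.92 in SB431542 alone, and changed by -0.61 (adjusted p = 0.17), while Nodal alone raised it by 4.10. Hnf4a, a transcription factor of visceral endoderm and liver, changed by -0.24 (adjusted p = 0.39) beside 1.32.

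Of 17 measured parietal endoderm genes 2 rose and none fell under SB431542, with a median of 0.03, whereas Nodal alone raised 1 and lowered 11, with a median of -0.43. The shares of all genes were 3.2% higher and 0.482% lower under SB431542, and 28.7% and 28.9% with Nodal alone. Nid1, the basement membrane protein nidogen, was at 14.66, 14.77 and 14.68 in Nodal with SB431542, against 13.74, 13.76, 13.63, 13.71 and 14.67 in SB431542 alone. It rose by 0.88 ± 0.20 log2 units (adjusted p = 0.0254), and by 0.98 without the 2 arrays (0.000222), while Nodal alone gave -4.16. The further detected probe of Nid1 gave 0.19 under SB431542. Sox7, a transcription factor of primitive endoderm, was at 13.60, 13.38 and 13.55, against 12.78, 12.59, 12.76, 13.03 and 13.72 in SB431542 alone, and rose by 0.71 ± 0.20 (adjusted p = 0.0487), and by 0.78 without the 2 arrays (0.00503). For both genes SB431542 replicate 5 and Media replicate 5 (14.50 for Nid1 and 13.60 for Sox7) lay close to the Nodal with SB431542 arrays. Of 8 transcription factors of primitive endoderm Sox7 alone passed, and Gata6 and Sox17 changed by -0.09 and -0.10 (adjusted p = 0.62 each). None of 3 anterior visceral endoderm genes passed (limma, 2 at an unadjusted p below 0.05). Hhex, a homeobox gene of that tissue, changed by 0.79 (adjusted p = 0.105, and 0.0338 without the 2 arrays).

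None of 13 measured epithelial genes passed under SB431542 (limma, 1 lower at an unadjusted p below 0.05), with a median of -0.21, where Nodal alone raised 8 and lowered 1, with a median of 1.56. Krt18, a simple-epithelium keratin, was at 11.26, 11.46 and 11.33 in Nodal with SB431542, against 11.47 to 11.61 in SB431542 alone and 12.58 to 13.27 in Nodal. The small difference of -0.21 did not pass (adjusted p = 0.26). Of 6 mesenchymal genes, none passed under SB431542 (limma, 1 higher at an unadjusted p below 0.05) and Nodal alone lowered 4.

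Among 16 measured genes of MAPK feedback and the immediate early response, 1 rose under the inhibitor, with a median of 0.02, and Nodal alone raised 13, with a median of 1.43. Of all genes, 3.2% rose under the inhibitor and 28.7% with Nodal alone. The gene that rose under the inhibitor was Dusp6, a phosphatase of ERK, at 7.51, 7.64 and 7.65 in Nodal with SB431542, against 6.73, 7.07, 6.98, 7.26 and 7.44 in SB431542 alone. The groups did not overlap, and Dusp6 rose by 0.61 ± 0.15 log2 units (adjusted p = 0.0283), and by 0.64 without the 2 arrays (0.00941), where Nodal alone raised it by 2.64. The Media arrays, at 7.43, 7.13, 7.19, 7.58 and 7.68, overlapped the Nodal with SB431542 arrays, and against Media the change was 0.26 (adjusted p = 0.34). Without background correction Dusp6 rose by 0.37 (adjusted p = 0.0433), and in the fit of the authors' deposited values it did not pass (0.23, 0.123). Etv4 and Etv5, ETS factors downstream of ERK, were detected on no array of either inhibitor group and changed by 0.29 and 0.08 (adjusted p = 0.40 and 0.85), beside 3.23 and 2.52 for Nodal alone. Egr1 changed by -0.21 (adjusted p = 0.55) beside 1.62.

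None of 5 BMP targets or 4 Wnt targets passed under SB431542 (limma, none of the first and 1 higher and 1 lower of the second at an unadjusted p below 0.05), and Id1, a direct BMP target, changed by -0.24 (adjusted p = 0.46) beside 1.25 for Nodal alone. Of 14 cell cycle genes, Ccne2, the cyclin E2 gene, rose under SB431542 by 1.38 ± 0.37 (adjusted p = 0.0415), and by 1.52 without the 2 arrays (0.000253), while Nodal alone raised 9 genes of the list and lowered 1. Beside this, 3.2% of all genes rose under SB431542, and Nodal alone raised 28.7% and lowered 28.9%. Ccne2 was at 6.66, 6.68 and 6.93 in Nodal with SB431542, against 4.78, 5.83, 5.31, 5.10 and 7.33 in SB431542 alone, with 7.33 also on Media replicate 5. It was detected on 2 of 5 SB431542 arrays, and gave 0.53 without background correction (adjusted p = 0.0498) and 0.32 in the fit of the authors' deposited values (0.0704), which did not pass. None of 14 cholesterol synthesis genes passed under SB431542 (limma, 3 higher and 2 lower at an unadjusted p below 0.05), and Nodal alone lowered 13. None passed of 14 glycolysis and hypoxia genes, 14 stress response genes or 7 interferon response genes (limma, none, 5 and 1 of them at an unadjusted p below 0.05). Over all lists 9 of 180 distinct measured genes rose (5%, beside 3.2% of all genes) and none fell. The 9 include Acvr2a, which passed the detection filter only through the group where it is high. Without the 2 arrays 12 rose (6.67%, beside 6.78% of all genes), the 9 and also Hhex, Plat and Cyp51. In the fit of the authors' deposited values 9 rose and 2 fell, and none passed when arrays were centred on their medians in place of quantile normalisation.

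**Figure D3:**
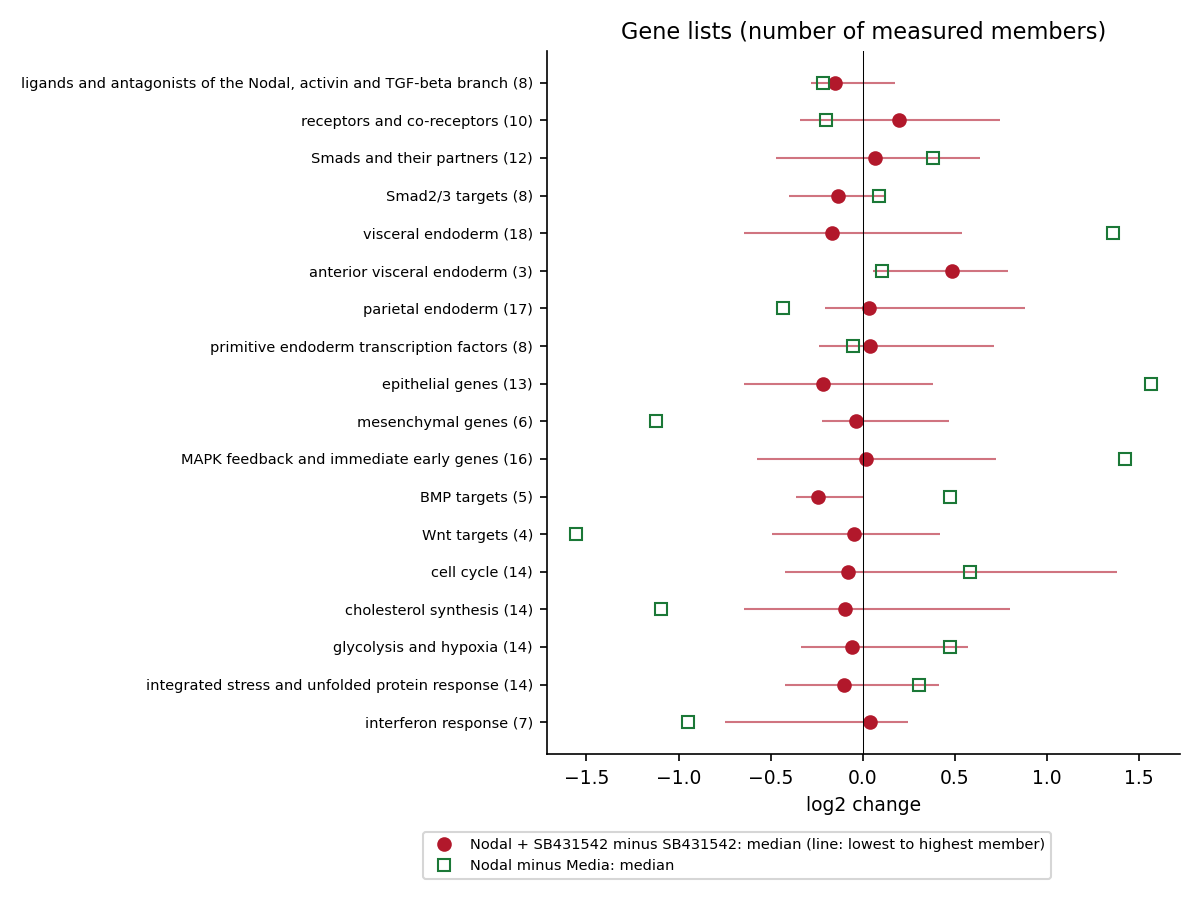
For each gene list, with the number of measured members in brackets, filled circles give the median log2 change for Nodal with SB431542 minus SB431542 and lines its lowest to highest member; open squares give the median for Nodal minus Media. The filled circles lie between -0.24 and 0.49 while the open squares run from -1.56 to 1.56.

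A smaller set of genes did differ between Nodal with SB431542 and SB431542 alone, mostly upward. There were 366 (3.68% of 9951), with 318 higher and 48 lower, and 122 of them by at least 2-fold (119 higher and 3 lower). Without the 2 arrays that stood apart there were 818 (8.22%), 675 higher and 143 lower, and 221 of them changed by at least 2-fold. Of the 366 genes, 51 had changed in the same direction and 152 in the opposite direction with Nodal alone, and 163 had not passed for Nodal alone. Media replicate 5, on chip 6, enters the Nodal change and can tilt this split, which was not repeated without it. Over all genes, the within-chip difference under the inhibitor correlated with Nodal minus Media at r = -0.10 on chips 2, 5 and 6. On chips 2 and 5 alone this was r = 0.01. Of the Nodal response genes 3.54% passed under the inhibitor, near the 3.68% of all genes. The number rests on single arrays: without Nodal with SB431542 replicates 1, 2 or 3 it was 0 (1260 at an unadjusted p below 0.05 in limma), 1 and 6, and without SB431542 replicates 1 to 5 it was 103, 33, 0 (1519 at an unadjusted p below 0.05), 129 and 607. With the 2 arrays out, leaving out 1 further array of either group gave 483 to 721.

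Net1, an exchange factor for the GTPase RhoA, had the largest rise and was at 9.07, 9.06 and 9.06 in Nodal with SB431542, against 5.61, 6.04, 5.42, 5.55 and 9.45 in SB431542 alone, and at 6.07, 5.73, 5.63, 5.38 and 9.18 in Media. The 3 arrays agreed closely, and replicate 5 of both control groups was as high as they were. Net1 was detected on 2 of 5 SB431542 arrays, so that its size of change rests in part on signals not well above background. The fitted rise was 3.09 ± 0.56 (SE) log2 units (adjusted p = 0.0121), and 3.41 without the 2 arrays (4.72e-09). Sfpq, a splicing factor of paraspeckles, was at 8.48, 8.30 and 8.56 in Nodal with SB431542, against 4.75, 5.17, 5.72, 5.36 and 8.63 in SB431542 alone and 5.89, 5.56, 5.84, 6.10 and 8.66 in Media. Of the SB431542 arrays only replicate 5 detected it, so no fold is given. The fit passed (adjusted p = 0.0148), while on the Nodal arrays it was at 4.96 to 5.67.

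Hif1a, the oxygen-regulated transcription factor, was at 8.42, 8.29 and 8.41 in Nodal with SB431542, against 6.04, 5.78, 5.79, 5.68 and 8.64 in SB431542 alone and 6.17, 5.52, 5.45, 6.09 and 8.50 in Media. It was detected on 3 of 5 SB431542 arrays and rose by 2.37 ± 0.54 log2 units (adjusted p = 0.024), and by 2.60 without the 2 arrays. The remaining large rises had the same arrangement of arrays, with SB431542 replicate 5 between 8.24 and 9.67 and the other SB431542 arrays at most 7.50. They were Eprs, a tRNA synthetase, by 2.58 (adjusted p = 0.0454), Slc6a15, a transporter of neutral amino acids, by a fitted 2.38 (0.017), Smarca5-ps by 2.33, 4932438A13Rik by 2.26, Srsf10, a splicing factor, by 2.14, Ctnnd1, the adherens junction protein p120 catenin, by 2.10, and Lpp, a focal adhesion protein, by 2.0. Smarca5-ps is a pseudogene whose probe may also bind transcripts of its parent gene, so its value is uncertain. Slc6a15 was detected on 1 of 5 SB431542 arrays, its further probes gave -0.53 and -0.03, and its change turned to -0.40 when arrays were centred on their medians (adjusted p = 0.732). Without the 2 arrays these 7 genes still passed, with changes between 2.18 for Lpp and 2.84 for Eprs. Other probes gave less: 0.79, 0.42, 0.27 and -0.31 for Srsf10, and 0.75, 0.29 and -0.20 for Lpp. Those of 4932438A13Rik gave 0.36 and -0.19, and that of Smarca5-ps gave 1.56.

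Genes of at least 2-fold in the Nodal response that moved furthest under SB431542 showed the same arrays. In the Nodal direction these were Net1 and Eprs, followed by Copg2, a subunit of the COPI coat detected on 1 of 5 SB431542 arrays (1.51, adjusted p = 0.122), Top2a, the topoisomerase of dividing cells (1.23, 0.14), and Nemf, a factor of ribosome quality control (1.23, 0.142), of which the last 3 did not pass. Against it were Akr1c12, an aldo-keto reductase, up by 1.99 (adjusted p = 0.024) where Nodal alone gave -1.43, Clk1, a kinase of splicing factors, up by 1.86 (0.0151) beside -1.21, Sema6d, a semaphorin, up by 1.59 (0.0217) beside -2.33, Spock1, a secreted proteoglycan, up by 1.47 (0.0216) beside -2.04, and Car4. Without the 2 arrays the rises were 2.21 for Akr1c12, 2.04 for Clk1, 1.79 for Sema6d and 1.58 for Spock1. The further probes of Sema6d and Spock1 gave 0.15 and 0.52. Over the 1737 genes of at least 2-fold, 7 passed in the Nodal direction and 64 against it, beside 366 (3.68%) of all 9951 genes in either direction. The split of the 1737 also includes Media replicate 5 and was not repeated without it. Clk1 was at 10.45, 10.70 and 10.58 in Nodal with SB431542, against 8.52, 8.66, 8.50, 8.79 and 10.71 in SB431542 alone, and at 10.82 on Media replicate 5.

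**Figure D4:**
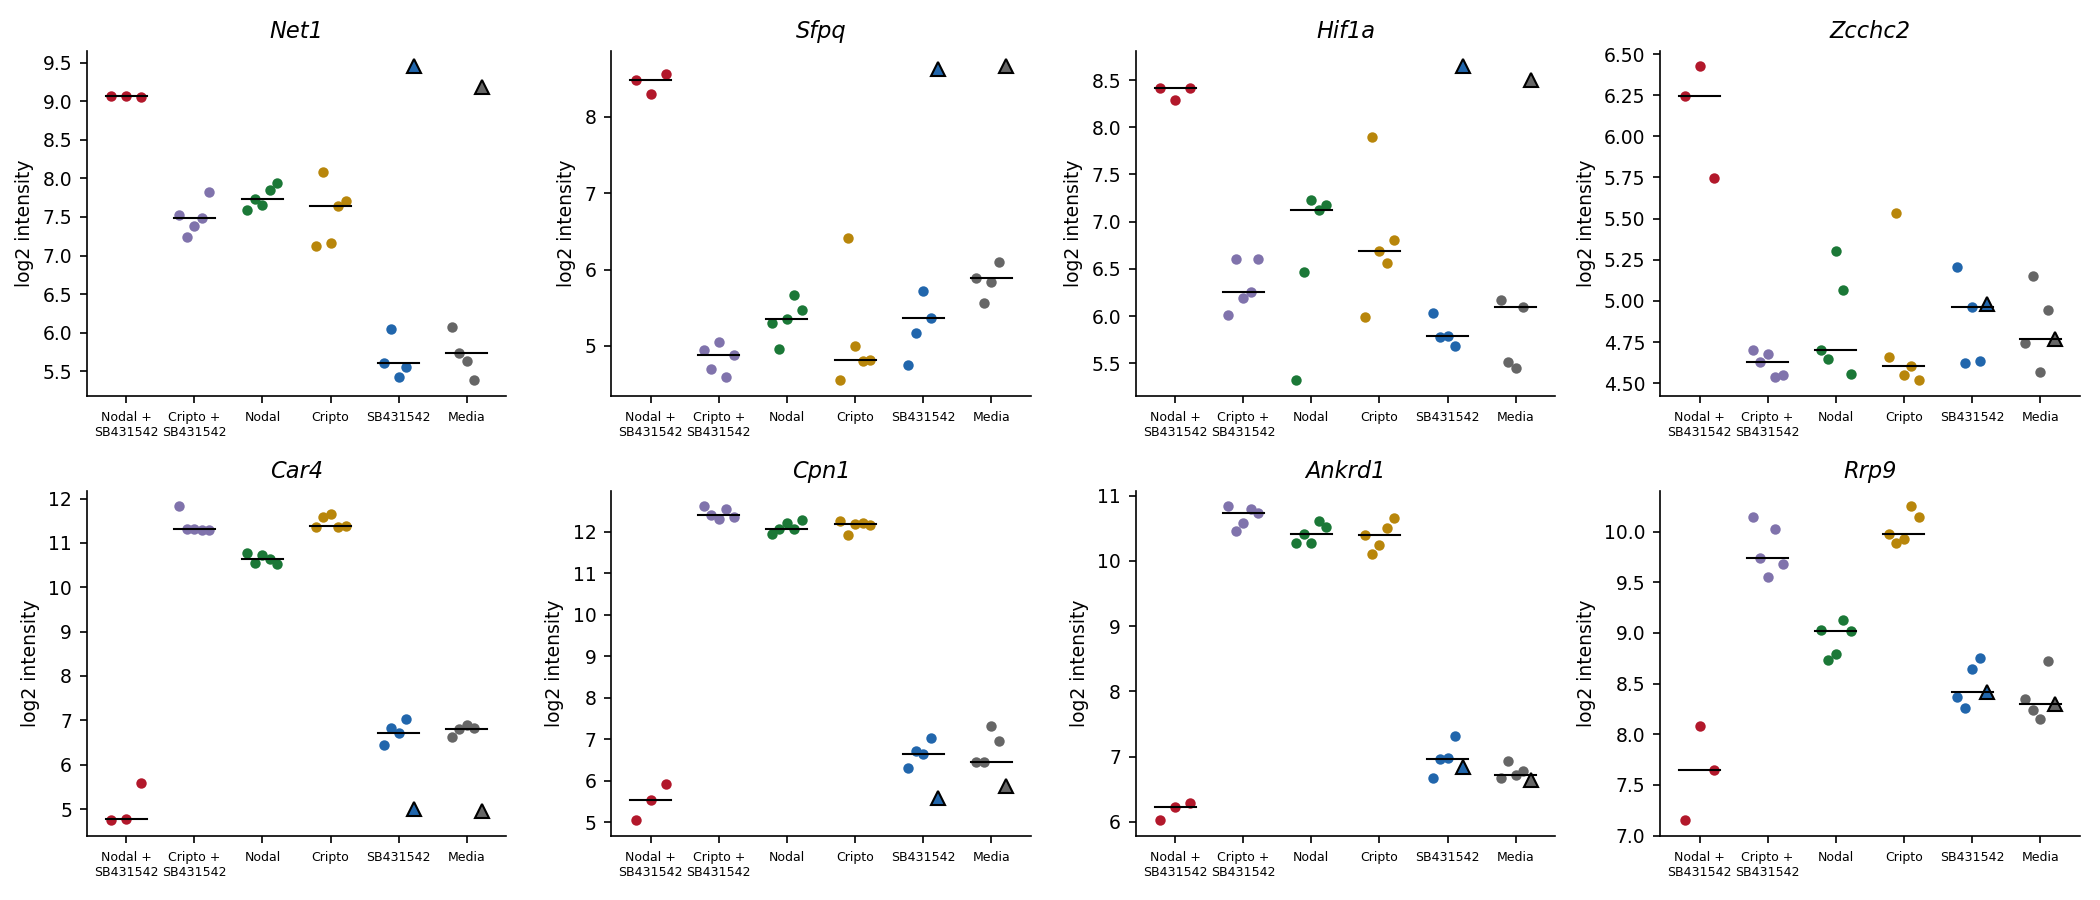
Log2 intensity of 8 genes on every array, by group, with group medians as black lines and SB431542 replicate 5 and Media replicate 5 as triangles. Net1, Sfpq, Hif1a, Car4 and Cpn1 show the triangles beside the Nodal with SB431542 arrays. Zcchc2, Ankrd1 and Rrp9 show them with their own groups, in intensities not adjusted for the chip. Car4, Cpn1 and Ankrd1 are the genes that Nodal alone raised strongly.

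The falls were smaller, and 3 of the 10 largest were in genes that Nodal alone raised strongly. Car4, a membrane-anchored carbonic anhydrase, was at 4.74, 4.78 and 5.59 in Nodal with SB431542, against 6.45, 6.83, 6.71, 7.02 and 5.0 in SB431542 alone and 6.62, 6.80, 6.90, 6.83 and 4.95 in Media. It was detected on none of the 3 Nodal with SB431542 arrays and on 4 of 5 SB431542 arrays, and again replicate 5 of both control groups was low. The fitted change was -1.54 ± 0.32 (SE) log2 units (adjusted p = 0.0164, and -1.70 without the 2 arrays), and measured from the detection limit Car4 was at least 1.65-fold lower. Nodal alone raised it by 4.22, to 10.52 to 10.77 on its arrays.

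Cpn1, the catalytic subunit of carboxypeptidase N, was at 5.05, 5.54 and 5.93 in Nodal with SB431542, against 6.31, 6.71, 6.65, 7.03 and 5.59 in SB431542 alone and 6.45, 6.46, 7.32, 6.97 and 5.87 in Media. It was lower than SB431542 replicates 1 to 4 on all 3 arrays and overlapped replicate 5, and was detected on 1 of 3 arrays with Nodal and 4 of 5 with SB431542 alone. Cpn1 fell by 1.03 ± 0.24 log2 units (adjusted p = 0.0248, and by 1.13 without the 2 arrays), with an interaction of -6.54 since Nodal alone raised it by 5.51. Cpn1 gave -0.41 without background correction (adjusted p = 0.0621) and -0.26 in the fit of the authors' deposited values (0.147), and neither passed.

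Ankrd1, an ankyrin-repeat protein of the nucleus and sarcomere that is a known target of Yap and TEAD factors, was at 6.02, 6.23 and 6.30 in Nodal with SB431542, against 6.67, 6.96, 6.97, 7.31 and 6.85 in SB431542 alone and 6.68, 6.94, 6.72, 6.78 and 6.65 in Media. Every array with Nodal lay below every control array here, replicates 5 included, and the differences on chips 1, 3 and 4 were -0.65, -0.74 and -0.68. After allowance for the chip, Media replicate 5 and SB431542 replicate 5 still departed from their groups in this direction, by -0.35 and -0.25. Ankrd1 fell by 0.71 ± 0.13 log2 units (adjusted p = 0.0121), and by 0.73 without the 2 arrays (0.000945). On the Nodal arrays it was at 10.28 to 10.61, a rise of 3.67. Without background correction its change under SB431542 was -0.31 (adjusted p = 0.0649), in the fit of the authors' deposited values -0.20 (0.177) and with centring -0.46 (0.207), none of which passed. Tead3, which encodes a TEAD factor, had a fitted change of -0.70 log2 units (adjusted p = 0.0458). It was detected on 0 of 3 arrays with Nodal and 2 of 5 with SB431542 alone, so the size is uncertain. Tead3 did not pass without background correction (-0.25, adjusted p = 0.0947), in the authors' deposited values (-0.14, 0.116) or with centring (-0.52, 0.215). After allowance for the chip, SB431542 replicate 5 departed from its group by -0.91 for Tead3.

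The promoters of these 3 genes are shown because each responded strongly upward to Nodal alone and fell with Nodal under the inhibitor. The sequences are the 250 bases before the gene start in RefSeq (GRCm38.p6), for Ankrd1 at chr19:36119845-36120094 on the minus strand, for Car4 at chr11:84957504-84957753 on the plus strand and for Cpn1 at chr19:43986521-43986770 on the minus strand. Capitals mark CAGAC (reverse complement GTCTG), the core of a Smad binding element, and GGAATG (reverse complement CATTCC), the core of a TEAD site, searched on both strands.
Ankrd1: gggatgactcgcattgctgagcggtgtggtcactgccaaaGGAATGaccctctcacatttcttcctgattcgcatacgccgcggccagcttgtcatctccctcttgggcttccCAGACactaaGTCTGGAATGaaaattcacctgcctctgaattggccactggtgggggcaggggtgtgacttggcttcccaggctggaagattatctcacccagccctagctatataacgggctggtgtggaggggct
Car4: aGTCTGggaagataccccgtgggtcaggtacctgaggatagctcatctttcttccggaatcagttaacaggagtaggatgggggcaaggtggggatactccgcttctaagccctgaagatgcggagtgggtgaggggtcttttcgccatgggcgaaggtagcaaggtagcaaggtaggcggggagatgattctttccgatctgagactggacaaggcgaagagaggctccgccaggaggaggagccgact
Cpn1: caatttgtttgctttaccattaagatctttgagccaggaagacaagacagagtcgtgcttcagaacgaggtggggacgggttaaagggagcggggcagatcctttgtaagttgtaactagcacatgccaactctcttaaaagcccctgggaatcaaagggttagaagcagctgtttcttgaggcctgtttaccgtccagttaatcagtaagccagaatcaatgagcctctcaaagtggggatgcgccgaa
The Ankrd1 window held 2 matches to CAGAC and 2 to GGAATG, where 1 GTCTG and 1 GGAATG overlap. The Car4 window held 1 match to CAGAC and none to GGAATG, and the Cpn1 window held none of either. Of 32536 mouse promoter windows of this length, 42.2% held CAGAC and 12.6% GGAATG on either strand, so these matches describe the letters and no more.

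The other falls among the 10 largest were in Maea, a subunit of the CTLH ubiquitin ligase (-1.05, adjusted p = 0.0125), Ccndbp1, a binding partner of cyclin D1 (-1.0, 0.0121), Plpbp, which binds pyridoxal phosphate (-0.76, 0.0175), Rcc1, the exchange factor for Ran (-0.73, 0.0261), and Nfe2l2, the antioxidant transcription factor NRF2 (-0.71, 0.0458). Without the 2 arrays their changes were -1.15, -1.10, -0.82, -0.76 and -0.78 in this order. Maea was at 6.64, 6.91 and 6.69 in Nodal with SB431542, against 8.09, 7.91, 7.87, 8.47 and 7.58 in SB431542 alone, with no overlap. After allowance for the chip, Media replicate 5 and SB431542 replicate 5 departed in the same direction for Maea, by -0.70 and -0.98. Rrp9, a component of the U3 small nucleolar RNP that matures ribosomal RNA, was at 7.15, 8.08 and 7.65, against 8.37, 8.26, 8.64, 8.75 and 8.41 in SB431542 alone. The ranges did not overlap, and SB431542 replicate 5 lay with its own group. Rrp9 fell by 0.80 ± 0.17 (adjusted p = 0.017, and by 0.79 without the 2 arrays), with a smaller difference on chip 3 (-0.18) than on chips 1 and 4 (-1.22 and -1.0).

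The size of these changes depended on the background correction. Of the 25 genes named by size of change that passed, 21 passed without background correction, 18 in the fit of the authors' deposited values, 10 with centring and 1 (Ankrd1) without the chip term. Their changes were over 1.5 times smaller in 15 genes without background correction and in 22 in the fit of the authors' deposited values.

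In few genes were both of the 2 arrays close to their own groups. Of the 675 genes higher and the 143 lower on 26 arrays, 7 and 6 had chip-adjusted departures of both replicates 5 that were under 25% of the Nodal with SB431542 difference in size. The following were chosen from these after their values were seen. Zcchc2, a zinc finger gene, was at 6.24, 6.42 and 5.75 in Nodal with SB431542, against 5.21, 4.62, 4.96, 4.64 and 4.98 in SB431542 alone and 4.57 to 5.15 in Media. It was detected on all 3 arrays with Nodal and on none of the SB431542, Media, Nodal, Cripto or Cripto with SB431542 arrays, so that it passed the detection filter only through the group where it is high and no test is given. Measured from the detection limit it was at least 1.23-fold higher than with SB431542 alone.

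Avpi1, a small protein induced by vasopressin, was at 10.61, 10.59 and 10.65, against 10.95, 10.98, 11.09, 11.31 and 10.97 in SB431542 alone. Its ranges did not overlap, and it fell by 0.37 ± 0.10 (adjusted p = 0.0438) where Nodal alone raised it by 0.76. H4c6, a histone H4 gene with near-identical copies whose signals the probe may share, fell by 0.61 (adjusted p = 0.032). The further probes of H4c6 gave 0.13 and -0.26, and that of Avpi1 gave -0.39.

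Probes other than the brightest repeated the changes only in part. Of the 366 genes, 183 had a further detected probe, and of these 282 probes 74.1% had the same sign, 39.7% had the same sign at an unadjusted p below 0.05, and 43.3% showed at least 50% of the change. For Nodal against Media the same shares were 84.8%, 64.4% and 65.7%. The second probe of Net1 rose by 2.56 (unadjusted p = 0.000171), and that of Pmch gave 1.36. The further probes of Eprs gave 0.41 and -0.17, and that of Ccndbp1 gave 0.38, against -1.0 for its brightest probe. For Cpn1 the further probes gave -0.03 and 0.24, for Plpbp -0.51 and 0.25, and for Ankrd1 -0.24 (unadjusted p = 0.24). Among the list members that passed, those of Tgfbr1 and Dusp6 gave 0.49 and 0.50, and those of Sox7 0.81 and 0.22.

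**Figure D5:**
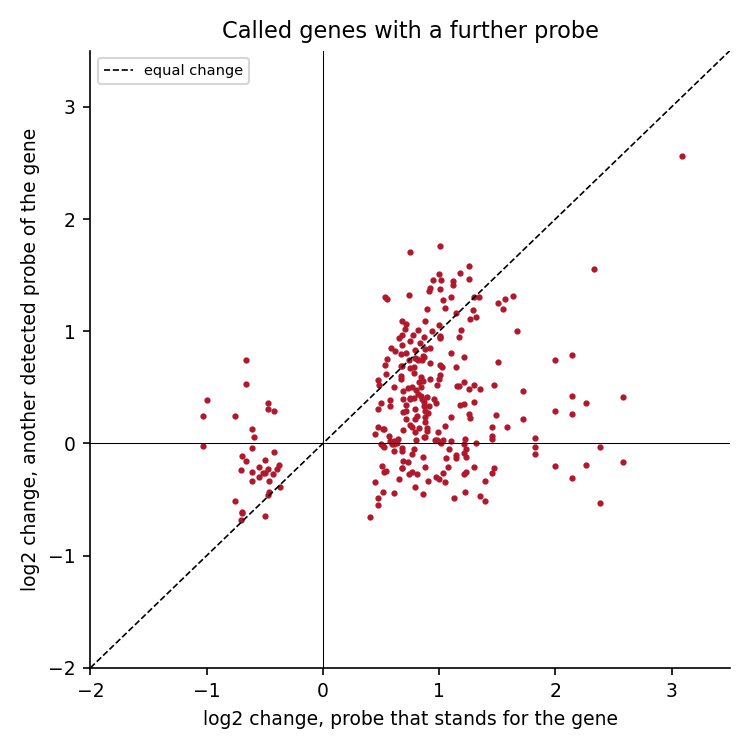
Each point is 1 of 282 further detected probes of the 366 genes that passed, with the log2 change (Nodal with SB431542 minus SB431542) of the probe that stands for the gene on the horizontal axis and of the further probe on the vertical axis. The median further probe showed 0.375 of the change, and the dashed line marks equal change.

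Nodal with SB431542 differed from Media in 264 genes (2.65%), 224 higher and 40 lower, and in 841 (8.45%) without the 2 arrays, in a comparison that shares the Nodal with SB431542 arrays with the one above. SB431542 alone differed from Media in no gene (limma, 270 at an unadjusted p below 0.05, smallest adjusted p 0.295). Arrays labelled Cripto with SB431542 gave another result, and Nodal with SB431542 differed from Cripto with SB431542 in 6396 genes (64.3%), 3158 higher and 3238 lower. Arrays labelled Cripto with SB431542 had a mean signed deviation over the Nodal response genes of 0.45 to 0.50, which lies with the Nodal arrays, whereas those labelled Nodal with SB431542 were at -0.55. Whether the inhibitor label of the Cripto arrays holds was not tested, so this difference sets the labelled groups side by side. Gpc3 was at 5.60, 5.32 and 5.82 in Nodal with SB431542 and at 11.19, 11.26, 11.37, 11.61 and 11.63 in Cripto with SB431542, a difference of -5.85 (adjusted p = 2.18e-14), and Cldn6 differed by -5.64 (adjusted p = 4.73e-14).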

How the data were processed

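Per the labels, 200 ng of biotin-labelled RNA from each sample went onto an Illumina MouseWG-6 v2 array. The deposited values are, per the file headers, a bead-averaged signal for each of 45281 probes, a linear intensity, and a detection p-value against negative control beads. Signals carried no visible background subtraction or scaling. A second table deposited by the authors holds values that act as log2 intensities. BeadStudio and lumi are named per the submitters' processing notes, and how they were applied is not given in the sources used here.

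From the signals, limma 3.58.1 in R 4.3.3 estimated background from the detection p-values, applied normexp (offset 16), quantile normalisation and log2, which hides any shift of most genes 1 way. Probes with a detection p-value below 0.01 on at least 3 arrays were kept (18471). GEO's platform annotation, with symbols updated through RefSeq, gave 34885 probes 1 symbol, 18 several and 10378 none, and the probe with the highest mean stood for its gene. The linear model held group and BeadChip as fixed terms (residual df 16), with a two-sided empirical Bayes test and Benjamini-Hochberg adjustment, and was tested on simulated data. The number of arrays limits the precision. A fold "at least" compares the detected group with the lowest detected signal of the undetected arrays.

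Genes named are the 10 largest rises and falls that passed with 1 sign on all shared chips, the same for Nodal against Media, the 5 Nodal response genes of at least 2-fold furthest with and against Nodal under SB431542, and members of 18 lists. Members and lists were chosen with earlier results of these data known. In the lists, 66 entries had a probe below the detection filter and 23 were not analysed here.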

Additional observations from a re-analysis of the deposited data

Results flagged for a closer look

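On 16 of the 46 genes named by size of change, SB431542 replicate 5 lay so far from the other 4 SB431542 arrays that its gap to the nearest of them exceeded 0.71 of the group's range, Dixon's 95% criterion for 5 samples, which chance passes in a small share of groups. Its log2 intensities were 9.45 for Net1, 8.63 for Sfpq, 9.67 for Eprs, 8.24 for Slc6a15, 8.64 for Hif1a, 8.65 for Smarca5-ps, 8.30 for 4932438A13Rik, 9.39 for Srsf10, 9.65 for Ctnnd1 and 8.72 for Lpp. They were 5.0 for Car4, 11.03 for Pmch, 11.02 for Top2a, 9.88 for Akr1c12, 10.71 for Clk1 and 12.20 for Spock1. On each of these genes the array lay on the side of the Nodal with SB431542 arrays. By the same criterion SB431542 replicate 4 stood apart for Rnf130 (5.77) and SB431542 replicate 2 for Satb1 (11.60). The mean level of the 675 genes higher in Nodal with SB431542 marked the same arrays, with 9.34 on SB431542 replicate 5 and 9.29 on Media replicate 5.

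The effect of Nodal differed with and without SB431542 in 4365 genes (43.9%) by the interaction test in limma. The genes listed next were chosen by their change under the inhibitor, which is a term of the interaction. Their interactions are therefore no separate evidence for that change. Among genes that rose under the inhibitor the interaction was 3.96 for Sfpq, 2.10 for Slc6a15, 2.05 for Hif1a, 2.10 for Smarca5-ps, 2.74 for 4932438A13Rik, 2.01 for Srsf10, 2.37 for Ctnnd1 and 2.53 for Lpp, in log2 units. Among genes that fell it was -5.76 for Car4, -2.02 for Maea, -6.54 for Cpn1, -2.12 for Ccndbp1, -1.39 for Rrp9, -1.78 for Plpbp, -1.26 for Rcc1, -1.16 for Nfe2l2 and -4.37 for Ankrd1. Net1, Eprs and Tead3 did not pass this test (interactions of 1.73, 1.14 and -0.32, adjusted p = 0.0619, 0.327 and 0.315).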

How the results depend on the processing

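The number of genes that differed between Nodal with SB431542 and SB431542 alone (366) was 76 with arrays centred on their medians (75 higher, 1 lower), 3 without the chip term, 227 without the detection filter and 1594 with only these groups in the fit. It was 818 without SB431542 replicate 5 and Media replicate 5, and 661, 608, 552 and 721 when SB431542 replicates 1, 2, 3 or 4 were also left out. Leaving out 1 array gave 0 to 607. Against Media (264) the number was 841 without both replicates 5, 28 with centring, 51 with mean signal as a covariate, 3 without the chip term, 113 without the filter, 562 on chips 1 to 4, 0 with only these groups (2552 at an unadjusted p below 0.05 in limma) and 0 to 796 with 1 array left out. Without Media replicates 1 to 5 in turn it was 11, 18, 12, 7 and 796. The causes were not tested. The mean signed change of the Nodal response genes (-0.0246) was 0.000197 without both arrays, 0.0511 with centring, -0.0743 with the covariate, -0.0420 without the chip term, -0.00350 on chips 1 to 4 and -0.0526 to -0.00119 with 1 array left out. The 8823 genes with an interval within 2-fold became 17908 without the filter, which tests more genes, and 8086 to 8764 with 1 array left out. The 1402 of 1737 genes (80.7%) with a bounded remainder became 799 of 882 without background correction (90.6%) and 556 of 606 in the authors' deposited values (91.7%), where fewer genes reached 2-fold, 1746 of 2459 with centring (71%), and 1250 to 1387 with 1 array left out. Without both replicates 5 they became 1320 of 1742 (75.8%). Nodal against Media, the interaction and the comparison with Cripto with SB431542 stayed within 1.5 times their numbers in every alternative run, but centring moved their splits to 5042 higher and 1156 lower, 1044 and 2942, and 2271 and 3638. Of 46 named genes 38 kept their direction in every alternative, and Slc6a15 turned to -0.40 with centring (adjusted p = 0.732). No paired analysis was possible because of missing replicate numbers in the labels, beyond the pairing by slide that the chip term makes. The dose of the inhibitor, the independence of the cultures and the 3 arrays of Nodal with SB431542 limit what can be read, and changes of genes that some arrays of a group did not detect are uncertain in size.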
